A study of Mus musculus with 2 samples.

Results

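The SLAM family is a group of immune-cell surface receptors with small adaptors that bind their tails. Its 8 genes described here were measured in inflammation-experienced regulatory T cells, which are Foxp3-dependent CD4 T cells that restrain immune responses. They are the receptors Slamf1, Slamf6, Slamf7, Cd48, Cd84 and Ly9 and the SH2-domain adaptors Sh2d1a and Sh2d2a, taken by GENCODE M21 symbol from 55536 GENCODE genes. Polyadenylated RNA came from primary cells of male mice, 7 weeks old, whose origin was given as activated regulatory T cells. The labels name 1 biological replicate with 2 technical libraries (library 1 and library 2), with no genotype, agent, dose or second condition. All values therefore belong to 1 group. By these labels, a difference between the libraries is one between technical libraries and not between conditions. The labels do not show whether both libraries were made from the same cells or animals. The manner in which the cells met inflammation, the gate used to sort them and the number of animals remain not given in the sources used here.

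Most SLAM receptors bind a copy of themselves on a neighbouring cell, so that T cells, B cells and antigen-presenting cells signal to each other through the same molecule. Their tails carry immunoreceptor tyrosine-based switch motifs, which bind SAP (the product of Sh2d1a) once the tyrosine is phosphorylated. SAP recruits the kinase Fyn, and the same motifs can recruit inhibitory phosphatases when SAP is absent. Loss of human SAP causes X-linked lymphoproliferative disease, and in mice SAP and its receptors are needed for natural killer T cell development and for stable contacts of T cells with B cells.

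The switch motif was read from the coding sequences of the GENCODE M21 transcripts (mm10), because the transcripts of a receptor differ in how many motifs they keep. The search took, in the reading frame of the coding strand, a threonine codon, any codon, a tyrosine codon, any 2 codons, and a valine or isoleucine codon, which is 18 bases. The lines below show the matches in the receptor tails, 5′ to 3′ on the coding strand, with the codons for threonine, tyrosine and the last residue in capitals.
Slamf1 motif 1: ACTattTATgcccaaGTA
Slamf1 motif 2: ACAgttTATgccagtGTG
Slamf6 motif 1: ACTgtgTATgcacaaGTC
Slamf6 motif 2: ACAattTACtccataGTT
Cd84 motif 1: ACAgtaTATgctgtaGTT
Cd84 motif 2: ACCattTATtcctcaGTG
Ly9 motif 1: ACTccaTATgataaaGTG
Ly9 motif 2: ACAatcTACtgctctGTG
Slamf7 motif: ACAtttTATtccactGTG
The motif 1 sequences of Slamf1 (chr1:171792339-171792356), Slamf6 (chr1:171939437-171939454) and Cd84 (chr1:171884605-171884622) lie on the plus strand. Those of Ly9 (chr1:171593912-171593929) and the single match of Slamf7 (chr1:171636327-171636344) lie on the minus strand. Slamf1, Slamf6, Cd84 and Ly9 each held 2 matches in at least 1 transcript, and Slamf7 held 1. Cd48, which is held in the membrane by a lipid anchor and has no tail, had 1 match at codon 105 of 240, in the part of the protein outside the cell. The adaptors had none. Among 21526 protein-coding genes with a complete coding sequence, 1725 (8.01%) held at least 1 match, so the pattern of codons is not rare, and a match describes the sequence and does not show use.

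The libraries held 26593267 and 22036331 expected counts over GENCODE genes. T cell markers stood at a summed TPM (transcript abundance scaled to a fixed library sum and corrected for length) of 9988 and 9694, and the regulatory T cell markers Foxp3, Il2ra, Ctla4, Ikzf2 and Tnfrsf18 were all detected, at a sum of 784 and 759. Genes of other cells were present as well. The B cell list summed to 602 and 548, with 5 of 6 genes higher in library 1, and the erythroid list to 4830 and 56.7, with 5 of 5 higher in library 1. The macrophage and monocyte list summed to 33.7 and 88.8, with 7 of 8 higher in library 2, and both CD8 genes were higher in library 1. The dendritic cell list summed to 7.56 and 5.9, with 2 of 5 genes higher in library 1 and 1 in library 2. Among all genes tested, 23.9% were called as higher in library 1 and 46.4% as higher in library 2. In bulk RNA, fewer cells of a type and less RNA per cell cannot be told apart.

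All 8 genes were detected, which here means that the TPM reached 1 in each library, and 7 of them stood above a TPM of 39 in both. The 8 together held 1244 TPM in library 1 and 1235 in library 2, or 1240 ± 6.22 (SD, n = 2 libraries), with a median of 116 per gene. Their order was the same in both libraries, namely Slamf6, Cd48, Sh2d2a, Ly9, Cd84, Sh2d1a, Slamf1 and Slamf7. At no step did the library values of neighbours in that order overlap. The steps in mean TPM were 1.34-fold, 1.77-fold, 1.34-fold, 1.21-fold, 1.22-fold, 2.20-fold and, from Slamf1 to Slamf7, 14.0-fold.

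**Figure D1:**
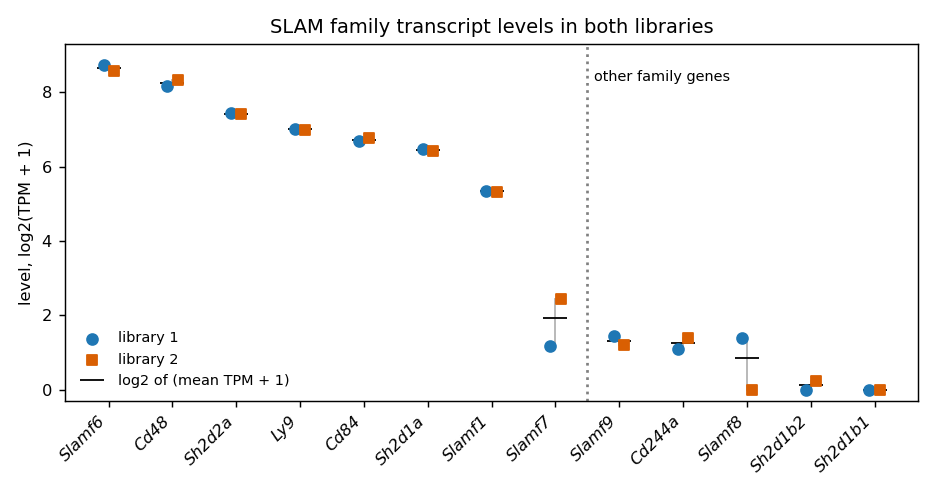
Level of each gene on the vertical axis as log2(TPM + 1), with library 1 as circles, library 2 as squares and the level from the mean TPM as a dash, and with 5 other genes of the family right of the dotted line. Circles and squares nearly coincide for the 7 highest genes, Slamf7 is apart at a TPM of 1.25 and 4.38, and the other family genes lie at a TPM of 1.72 or less.

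Slamf6 (Ly108), a self-binding receptor of T, B and natural killer cells, was the most abundant of the 8. Its TPM was 427 in library 1 and 382 in library 2, or 404 ± 32.1 (SD, n = 2 libraries), at the 97.5 percentile of the 13718 detected genes. The gene (ENSMUSG00000015314.10) lies on chromosome 1, 171917515 to 171953170, plus strand. It had 9345 and 7186 expected counts, which after division by library totals was 1.08-fold higher in library 1 (log2 ratio of library 2 over library 1 of -0.11, 95% interval -0.15 to -0.06, adjusted p = 5.16e-06, exact binomial test over 24253 genes). In the small gene table, a separate whole-number count with GENCODE M4, it had 2048 and 1833 counts, a log2 ratio of 0.02, and was not called.

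Cd48, the lipid-anchored receptor that binds Cd2 on T cells and Cd244 on natural killer cells, was next. Its TPM was 286 in library 1 and 320 in library 2, or 303 ± 24.3 (SD, n = 2 libraries), at the 96.4 percentile. Cd48 (chromosome 1, 171682009 to 171705258, plus strand) was the only one of the 7 highest genes that passed the test as higher in library 2, with 5376 and 4936 counts and 0.15 on the log2 scale (interval 0.09 to 0.20, adjusted p = 6.51e-07, exact binomial test). The small table gave 1265 and 1232 counts and 0.14 (adjusted p = 0.0258, exact binomial test), whereas TMM scaling reduced the ratio to 0.04 (adjusted p = 0.216) and ended the call. Its binding partner Cd2 stood at 811 and 816 TPM, above Cd48 in both libraries.

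Ly9 (CD229), a self-binding receptor with 4 immunoglobulin-like domains, gave TPM values of 128 (library 1) and 127 (library 2), or 128 ± 1.07 (SD, n = 2 libraries), at the 89.3 percentile. Its 4942 and 4021 counts differed by -0.03 on the log2 scale (adjusted p = 0.449, exact binomial test). The gene lies on the minus strand (chromosome 1, 171588624 to 171607410) within the bounds of Cd244a on the plus strand, and the exons of the 2 genes share 0 bases.

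Cd84, a self-binding receptor of B cells, T cells, macrophages and platelets, had a TPM of 101 and 109, or 105 ± 5.20 (SD, n = 2 libraries), at the 86.5 percentile. It lies at 171839697 to 171890718 on the plus strand of chromosome 1. Its 4452 and 3820 counts gave a log2 ratio of 0.05 (interval -0.01 to 0.11), which did not pass. The direction for Cd84 depended on the scaling and the table, at -0.09 with DESeq2 size factors (adjusted p = 0.00484) and 0.16 in the small table (adjusted p = 0.0315, exact binomial test). Of 5 megakaryocyte and platelet genes, which summed to 4.04 and 3.02 TPM, Pf4 had 9 and 8 counts and Itga2b had 42 and 9, the one called, as higher in library 1, while Ppbp and Gp9 were at 0 in both libraries. Their part in the Cd84 values was not tested.

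Slamf1 (SLAM, CD150), the founding receptor of the family and a receptor for measles virus in humans, had a TPM of 39.3 in each library, at the 65.0 percentile (39.3 ± 0.0424, SD, n = 2 libraries). This was the closest pair of values among the 8 genes. Its counts of 1812 and 1492 differed by -0.01 on the log2 scale (adjusted p = 0.889, exact binomial test), and the interval ran from -0.11 to 0.09. The small table gave 710 and 551 counts and -0.18 (adjusted p = 0.0477, exact binomial test), a call as higher in library 1. Slamf1 lies at 171767127 to 171801184 on the plus strand of chromosome 1.

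Slamf7 (CRACC), a self-binding receptor best known from natural killer cells, plasma cells and macrophages, was the one gene of the 8 near the limit of detection. Its TPM was 1.25 in library 1 and 4.38 in library 2 (2.82 ± 2.21, SD, n = 2 libraries), at the 13.9 percentile. It had 34 and 134 counts after rounding, a 4.70-fold higher value in library 2 (log2 ratio 2.23, interval 1.70 to 2.84, adjusted p = 7.26e-19, exact binomial test). The small table gave 21 and 65 counts and a log2 ratio of 1.79, also called. Slamf7 (chromosome 1, 171632403 to 171653035, minus strand) shares 423 exonic bases with the antisense gene Gm37787, which had 2.27 and 2.79 counts.

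Markers of the cells known for Slamf7 were set beside it, with 46.4% of all genes called as higher in library 2. In the macrophage and monocyte list, where 7 of 8 were higher in library 2, Csf1r had 12 and 492 counts, C1qb 19 and 246, and C1qc 0 and 223, while Lyz2 was the one gene higher in library 1. The natural killer cell list summed to 12.9 and 23.1 TPM, with 3 of 6 genes higher in library 2. These were Prf1 with 268 and 439 counts, Eomes with 109 and 170, and Gzma with 0 and 11. Of the rest, Ncr1 had 0 and 5 counts and Klra8 had 0 in both. Klrb1c had 148 and 99 counts, and 31 and 40 in the small table, and was not called in either with library totals. With TMM (log2 ratio -0.42) and DESeq2 size factors (-0.45), however, Klrb1c was called as higher in library 1. The plasma cell list summed to 10.7 and 15.3 TPM, with 3 of 5 genes higher in library 2 and 1 in library 1. Their part in the Slamf7 difference was not tested.

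The adaptor Sh2d1a (SAP, chromosome X, 42502453 to 42529330, plus strand) gave TPM values of 87.5 (library 1) and 85.0 (library 2), or 86.2 ± 1.74 (SD, n = 2 libraries), at the 83.0 percentile. It had 1175 and 956 counts and a log2 ratio of -0.03 (interval -0.15 to 0.10), which did not pass. Of its exonic bases 26.6% also lie in exons of Tenm1 on the opposite strand, but that gene had 2 and 20 counts.

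The adaptor Sh2d2a (TSAd, chromosome 3, 87846755 to 87855722, plus strand) binds the kinase Lck in T cells and is related to SAP by its SH2 domain, not by binding to SLAM tails. Its TPM was 174 and 169, or 171 ± 3.05 (SD, n = 2 libraries), at the 92.7 percentile. Its 7852 and 6175 counts gave a log2 ratio of -0.08 (interval -0.12 to -0.03, adjusted p = 0.00365, exact binomial test), a call as higher in library 1 that turned to 0.04, not called, in the small table.

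Between the libraries, 4 of the 8 genes passed the exact binomial test, against 70.3% of all genes tested, so a call by itself sets none of them apart from the rest. Slamf6 and Sh2d2a were higher in library 1, where 23.9% of all genes were called. Cd48 and Slamf7 were higher in library 2, where 46.4% were called. The 8 had a median log2 ratio of -0.02, beside 0.23 over all genes tested and 0.01 over detected genes. Apart from Slamf7, every gene had a log2 ratio of 0.15 or less in size, whereas the median size was 0.16 among the 3982 genes whose mean TPM reached 50, and 71.4% of those were called.

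The directions of these small differences depended on the scaling. TMM factors moved the median log2 ratio of detected genes to -0.10 and DESeq2 size factors to -0.14. TMM gave 5 calls as higher in library 1, where it called 30.1% of all genes, against 1 (Slamf7) in library 2, where it called 40.5%. Ly9, Sh2d1a and Slamf1 were added to Slamf6 and Sh2d2a. DESeq2 size factors, which called 32.1% and 39% of all genes, gave 6 and 1, with Cd84 added. The small table called Slamf1 as higher in library 1, against 22.1% of all genes there, and Cd48, Cd84 and Slamf7 as higher in library 2, against 32.2%, or 4 of 8 in all against 54.3%. Slamf7 was called as higher in library 2 in every one of these settings.

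**Figure D2:**
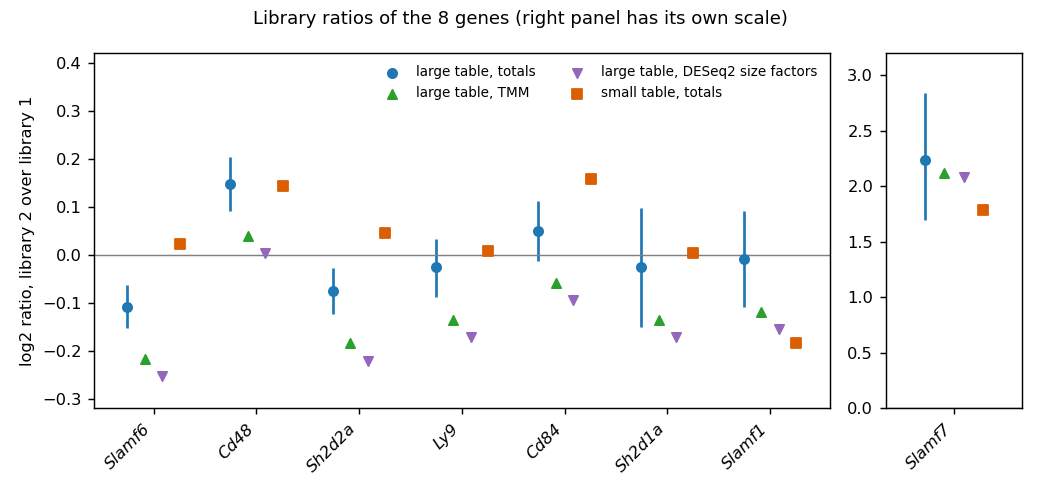
Log2 ratio of library 2 over library 1 on the vertical axis for each gene under library totals (circles, bars are 95% counting intervals), TMM factors, DESeq2 size factors and the small table, with Slamf7 on its own scale. For 7 genes the library-total ratios lie between -0.11 and 0.15 and move across 0 for 5 genes among the settings shown, while Slamf7 stays between 1.79 and 2.23.

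Slamf6 had transcripts with different tails. Of 7 annotated transcripts, Slamf6-204 took 46.0% of the gene's TPM in library 1 and 44.1% in library 2. Slamf6-201 took 19.5% and 18.3%, and Slamf6-207 took 4.33% and 6.07%. These 3 transcripts share their coding exons up to and including the one with motif 1 and differ after it. Slamf6-204 skips the exon that holds motif 2, so it codes for 327 residues with 1 motif, while Slamf6-201 (331 codons) and Slamf6-207 (351 codons) keep both. The pieces at which they part are given here on the plus strand, with motif 2 in capitals.
Slamf6 exon skipped in Slamf6-204, chr1:171941625-171941696: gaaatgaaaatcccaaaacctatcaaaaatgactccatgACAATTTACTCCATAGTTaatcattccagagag
Slamf6 last coding piece of Slamf6-201, chr1:171942578-171942589: gccgaatactct
Slamf6 last coding piece of Slamf6-204 and Slamf6-207, chr1:171947999-171948070: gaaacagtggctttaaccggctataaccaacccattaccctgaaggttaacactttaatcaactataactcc
The skipped exon has 72 bases, and so does the last coding piece of Slamf6-204 and Slamf6-207, while Slamf6-201 ends in 12. Alternative tails of mouse Slamf6 are known from work on lupus-prone strains. The strain of these mice is not given in the sources used here.

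**Figure D3:**
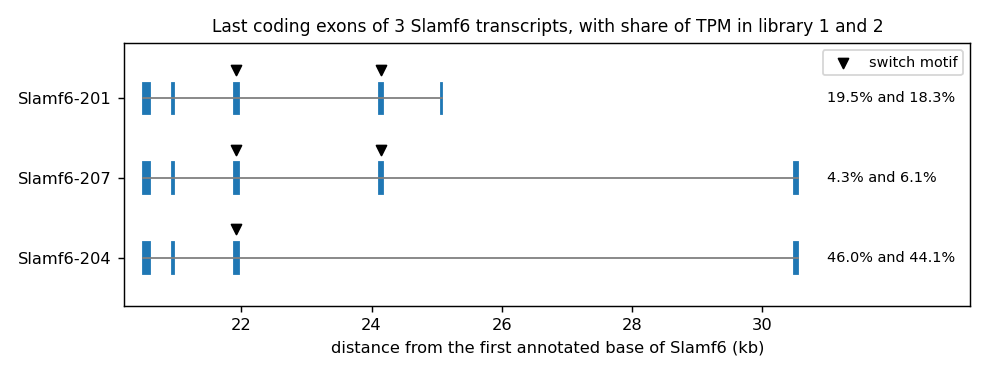
Last coding exons (bars) of 3 Slamf6 transcripts against distance from the first annotated base of the gene in kb, with triangles at switch motifs and the share of the gene's TPM in each library at the right. Slamf6-204, with 46.0% and 44.1%, lacks the exon of the second motif.

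Among the 3 Slamf6 transcripts with a complete coding sequence, the form without the exon of motif 2 made 65.9% of TPM in library 1 and 64.4% in library 2 (65.2% ± 1.03, SD, n = 2 libraries). By expected counts, which are not divided by length, it made 37.4% and 34.3%. The model of Slamf6-204 is 984 bases long, against 2485 for Slamf6-201 and 5729 for Slamf6-207, so the 2 measures weigh it differently, and Slamf6-201 led by counts. Of those 984 bases 981 are coding, so the model holds next to no untranslated sequence, and its shares depend on that annotation. How much they would change with a longer model was not tested. All 3 passed the exact binomial test, Slamf6-204 and Slamf6-201 as higher in library 1 (log2 ratios -0.24 and -0.27) and Slamf6-207 as higher in library 2 (0.31), and the authors' intervals of TPM did not overlap between the libraries for any of them. Those intervals lie around a posterior mean TPM, which differs from the TPM printed here, and 17 of the 36 transcripts of the 8 genes had a TPM outside their own interval in each library. A further 22.7% and 22.3% of TPM went to Slamf6-206, a processed transcript of 444 bases with no coding sequence, and 6.54% and 7.54% to the retained-intron transcript Slamf6-205.

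Cd84 had a transcript without any switch motif. Cd84-203 codes for 140 residues and ends ahead of codon 263, where motif 1 starts, whereas Cd84-201 and Cd84-205 (329 codons) and Cd84-204 (328) hold both motifs. The share of Cd84-203 was 29.1% of TPM in library 1 and 20.9% in library 2, and 37.2% and 27.3% of counts. Its counts of 1658 and 1043 made it higher in library 1 (log2 ratio -0.40, adjusted p = 1.23e-11, exact binomial test), while Cd84-205, at 39.6% and 45.5% of TPM, was higher in library 2 (0.28, adjusted p = 8.46e-10). The authors' TPM intervals of both did not overlap between the libraries. The 2 changes were in opposite directions, and the gene as a whole was not called.

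Ly9 was mostly in the full-length form. Ly9-202, with 654 codons, took 67.9% and 67.1% of TPM. Ly9-201, which lacks a coding exon of 330 bases (chr1:171604990-171605319, minus strand) and keeps both motifs in 544 codons, took 28.3% and 25.0%. Transcripts with both motifs made 96.3% and 93.0% of Ly9 TPM. The transcript Ly9-204, annotated for nonsense-mediated decay, took 2.88% in library 1 and 6.89% in library 2 (log2 ratio 1.22, adjusted p = 5.81e-17, exact binomial test), but the authors' TPM intervals of 1.36 to 9.38 and 3.33 to 14.7 overlap.

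Slamf1 and Cd48 were nearly single-transcript genes. Slamf1-201, with both motifs in 343 codons, took 92.3% and 90.9% of TPM, and the retained-intron transcript Slamf1-202 the other 7.74% and 9.13%. Cd48-202, with 240 codons, took 99.0% and 100% of TPM. The shorter Cd48-201, without a 267-base exon, had 40.5 counts in library 1 and 0 in library 2.

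Slamf7 was the one gene whose leading transcript differed between the libraries. Slamf7-204 (335 codons, 1 motif) took 96.8% of TPM in library 1 and 11.7% in library 2. In library 2 Slamf7-203 (333 codons, 1 motif) took 37.8% and Slamf7-202 (294 codons, no motif) 33.7%. These shares rest on 34 counts in library 1 and 134 in library 2, and the TPM intervals of Slamf7-202 and Slamf7-204 overlap between the libraries, while those of Slamf7-203 (0.00464 to 0.113 and 1.11 to 1.89) do not.

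**Figure D4:**
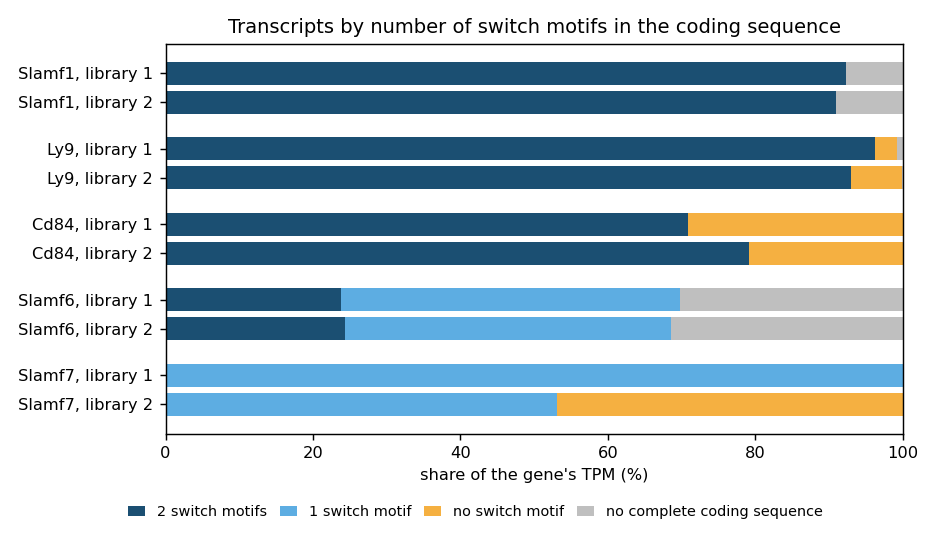
Share of each receptor's TPM (horizontal axis, %) held by transcripts with 2, 1 or no switch motif or with no complete coding sequence, with 1 bar per library. By TPM, Slamf1 and Ly9 are above 90% in transcripts with 2 motifs, Cd84 stands at 70.9% and 79.1%, and Slamf6 at 23.8% and 24.4%. The rest of Slamf6 is in the 1-motif form and in transcripts with no complete coding sequence. Shares of counts are not plotted and differ for Slamf6. Among Slamf6 transcripts with a complete coding sequence, the 1-motif form made 65.9% (library 1) and 64.4% (library 2) of TPM. By counts it made 37.4% and 34.3%.

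Both adaptors had a pair of coding transcripts of different coding length, which in Sh2d1a differ by the end of 1 exon. The lines below give the end of that exon of Sh2d1a on the plus strand, with the bases that the shorter form lacks in capitals, and for Cd84 the start of an exon that differs in the same way.
Sh2d1a, chrX:42502824-42502859: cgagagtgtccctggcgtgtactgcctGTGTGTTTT
Cd84, chr1:171884585-171884614: CAGatgatgtctcaaagaaaacagtatatg
Sh2d1a-201 (126 codons) keeps 9 bases that Sh2d1a-203 (123 codons) lacks. Among transcripts with a complete coding sequence, the shorter form made 32.1% of TPM in library 1 and 22.4% in library 2 (27.2% ± 6.89, SD, n = 2 libraries). This leaves out Sh2d1a-206, annotated as protein coding without a complete coding sequence, at 5.69% and 0% of the gene's TPM. Sh2d1a-203 was called as higher in library 1 (log2 ratio -0.61, adjusted p = 3.58e-05, exact binomial test) with 295 and 160 counts, but the authors' TPM intervals, 10.9 to 33.1 and 0.416 to 23.7, overlap. Sh2d2a-202 has 374 codons and Sh2d2a-201 has 366. The shorter Sh2d2a form made 38.0% and 36.8% of coding TPM, and 60.7% and 59.5% of counts, since the model of Sh2d2a-201 is 4484 bases long against 1807. In Cd84 the 3 bases were absent from 21.3% and 21.5% of tail-coding TPM, and from 13.2% and 13.1% of the counts.

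Over all 36 transcripts of the 8 genes, 31 had enough counts to test and 20 passed, or 64.5%, against 67.8% of all 60495 transcripts tested. Of these, 11 passed as higher in library 1, a direction taken by 28% of all transcripts, and 9 as higher in library 2, taken by 39.8%. The test takes the estimated counts as if each read had been assigned with certainty. For 8 of the 20, or 40% against 47.0% of all transcripts called, the authors' TPM intervals did not overlap between the libraries. They were Cd48-202, Cd84-203, Cd84-205, Sh2d2a-201, Slamf6-201, Slamf6-204, Slamf6-207 and Slamf7-203. The most abundant transcript by TPM was the same in both libraries for 7 of 8 genes.

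The remaining genes of the family were low or not detected. Cd244a (2B4), the receptor for Cd48 on natural killer cells, had a TPM of 1.14 and 1.61 with 29 and 39 counts and was not called, but the small table gave 9 and 25 counts and called it as higher in library 2 (log2 ratio 1.61, adjusted p = 0.00668, exact binomial test). Slamf9 had 1.72 and 1.28, with 36 and 22 counts. Slamf8, a myeloid receptor with a short tail, had 41 counts in library 1 and 0 in library 2, at least 11.3-fold higher in library 1 with 3 counts taken for library 2 (adjusted p = 1.38e-10, exact binomial test), and 18 and 0 in the small table. The SAP-like adaptors of natural killer cells were near 0. Sh2d1b1 (EAT-2), through which Slamf7 signals in those cells, had 0 counts in both libraries, which allows up to 0.113 and 0.136 CPM, and Sh2d1b2 had 0 and 1. In the small table Sh2d1b1 had 0 and 3 counts and Sh2d1b2 had 0 and 1, too few to test. Between SAP and these relatives the difference in level was therefore large in both libraries, with Sh2d1a at 1175 and 956 counts.

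Genes of the kinase and NF-kappaB arm downstream of SAP were present. All 8 reported were detected, with 2 higher in library 1, 3 higher in library 2 and 3 not called, and a median log2 ratio of 0.03. Over all genes, 23.9% were called as higher in library 1 and 46.4% as higher in library 2. Fyn, the kinase that SAP recruits, had a TPM of 454 and 423. It was called as higher in library 1 by the large table (log2 ratio -0.14) but as higher in library 2 by the small one (0.11). Prkcq (PKC-theta), which SAP and Fyn engage, stood at 230 and 302 (0.39). Vav1, an exchange factor, was at 162 and 200 (0.26) and Malt1 at 66.8 and 84.9 (0.22), both higher in library 2. Arhgef7 (beta-PIX), at 22.0 and 12.0, was the other gene higher in library 1 (-0.25), and Lck, Bcl10 and Nfkb1 did not pass. However, Nfkb1 was called as higher in library 1 with TMM (-0.11), DESeq2 size factors (-0.15) and the small table (-0.22). Lck was called as higher in library 1 with TMM (-0.12) and DESeq2 size factors (-0.16), but as higher in library 2 in the small table (0.17).

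The enzymes that bind SLAM tails in place of SAP were detected as well, 5 of 5, with 2 higher in library 1, 2 in library 2 and a median of 0.02. Those directions were called in 23.9% and 46.4% of all genes. Ptpn6 (SHP-1) had a TPM of 410 and 405. It was called as higher in library 1 (log2 ratio -0.05) but as higher in library 2 in the small table (0.10). Ptpn11 (SHP-2) had 34.9 and 17.7 and was higher in library 1 under both tables (-0.98 and -0.75). Inpp5d (SHIP-1) stood at 128 and 160 (0.27) and Inppl1 (SHIP-2) at 6.40 and 8.01 (0.33), both higher in library 2, but TMM (0.22) and DESeq2 size factors (0.18) ended the Inppl1 call. Csk, at 149 and 154, did not pass. By TPM, Ptpn6 and Inpp5d were above Sh2d1a in both libraries and Ptpn11 and Inppl1 were below it.

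Of 6 genes for proteins that bind the adaptor Sh2d2a or act with Lck beside it, all were detected. Lat (682 and 673 TPM, log2 ratio -0.08) and Zap70 (207 and 187, -0.14) were higher in library 1, and Plcg1 (0.17), Nck1 (0.33) and Nck2 (0.30) were higher in library 2. Among all genes, 23.9% and 46.4% were called in these directions. The small table ended the calls of Zap70 (-0.0068) and Nck2 (0.086) and turned Lat to 0.085, and DESeq2 size factors ended that of Plcg1 (0.026). Lck, the partner of Sh2d2a, was at 1220 and 1237 and did not pass with library totals. The median log2 ratio of these 6 was 0.08.

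Genes of the natural killer T and follicular helper cells that depend on SAP were more uneven. Of 7, 5 were detected, with 4 higher in library 1, 2 in library 2 and a median log2 ratio of -0.31. The shares of all genes called in those directions were 23.9% and 46.4%. Il21, the follicular helper cytokine, had 615 and 40 counts (log2 ratio -3.65) and Cxcr5, which guides cells to follicles, 882 and 218 (-1.74). Bcl6 (-0.39) and Icos (-0.24) were the others higher in library 1, though the small table ended the Icos call (-0.13). Zbtb16 (PLZF), the factor of innate-like T cells, had a TPM of 0.27 and 0.96 with 23 and 66 counts (1.77), and Il4 stood at 62.6 and 81.7 TPM (0.35), a call that the small table ended (0.17). Sh2d1a did not pass between the libraries beside these, with a log2 ratio of -0.03. The B cell list was also lower in library 2, at 602 and 548 TPM, of which Ighm made 447 and 436. The small table called 4 genes of that list as higher in library 1 but Ighm as higher in library 2 (0.088). The part of the B cell list in these values was not tested.

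Over all 31 partner genes reported, 26 were detected and 29 tested. Of these 21 passed, against 70.3% of all genes called. As higher in library 1 there were 11, where 23.9% of all genes were called, and 10 in library 2, where 46.4% were. TMM factors gave 16 as higher in library 1, against 30.1% of all genes, and 9 in library 2, against 40.5%. The median log2 ratio of the 31 was -0.0049, beside 0.01 for detected genes.

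The 6 receptor genes lie on chromosome 1 within 365 kb, in a stretch of 1031 kb from Cd244a to Slamf8 (171559193 to 172590568) that holds 28 protein-coding genes. By mean TPM, Slamf6 ranked first of the 28, Cd48 ranked 3, Ly9 ranked 5, Cd84 ranked 7, Slamf1 ranked 11 and Slamf7 ranked 15. The 6 had a median TPM of 116. The 19 genes outside the family had a median of 2.04, 10 of them were detected, and 3 exceeded 100 TPM, namely Tagln2, Copa and Ncstn. High and low genes alternated, since Slamf7 lies between Ly9 and Cd48, and Cd244a spans Ly9. Of the 16 neighbours tested, 9 passed as higher in library 2, against 46.4% of all genes in that direction, and 2 as higher in library 1, against 23.9%.

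**Figure D5:**
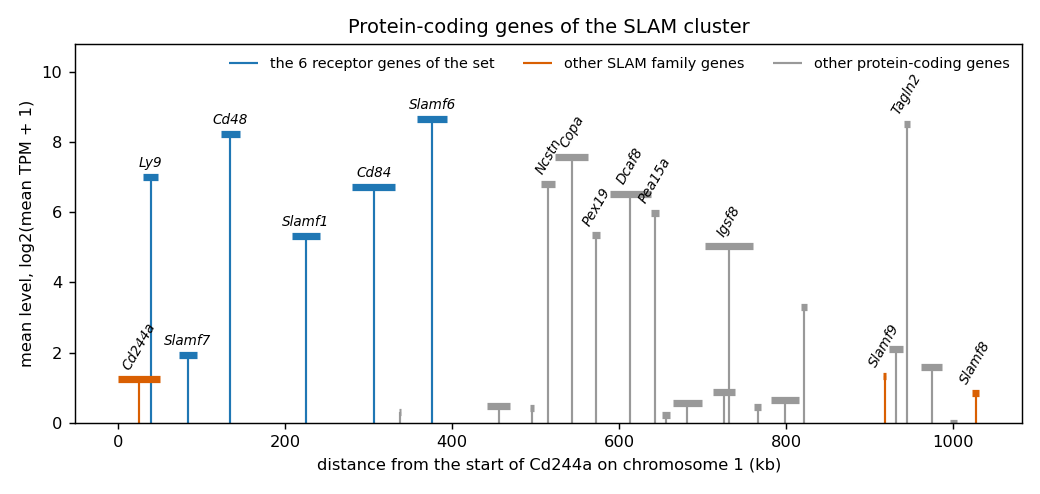
Protein-coding genes of the SLAM cluster by distance in kb from the start of Cd244a (horizontal axis) and by level, log2(mean TPM + 1), with the length of each gene as a horizontal bar. Of the 6 receptor genes, 5 exceed a mean TPM of 39, and Slamf7 and Cd244a stand low among them.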

How the data were processed

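RNA-seq of 2 technical libraries of 1 biosample was analysed. The authors deposited expected counts, TPM and FPKM per gene and transcript, estimated from transcriptome alignments (mm10, GENCODE M21), per the file headers and the deposited description. Per the file headers, the deposited transcript tables also give each transcript's percent of its gene, and interval bounds of TPM and a posterior SD, used as the authors' score of certainty (the bounds lie around the posterior mean TPM, not the TPM). The deposited small table holds whole-number counts with GENCODE M4. The aligner, the quantifier, strand use and removal of duplicates remain not given in the sources used here.

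Rounded expected counts, or small-table counts, were compared with a 2-sided exact binomial test against library totals, for features with at least 10 counts summed, with Benjamini-Hochberg adjustment over all features tested and genes with an adjusted p under 0.05 were called. It compares 2 libraries by counting error only. Ratios add 0.5 counts, intervals are 95% Clopper-Pearson, and a count of 0 allows 3 counts. Reads copied by PCR are not independent, so p-values are too small and intervals too narrow. The 2 libraries were not merged, since most genes differed beyond counting error. Alternatives used TMM (edgeR 4.0.16), DESeq2 1.42.0 size factors (R 4.3.3), other thresholds, FPKM, posterior means, the small table and each library alone. The test was checked on simulated counts drawn with counting error only, as the test assumes. That check cannot show how the test behaves where libraries differ beyond counting error.

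The genes, lists, tests and the rule for named genes (all genes of the set and of its partner lists, of which 2 are not reported here and stand in no count of the lists) were chosen with earlier results of these data known. Sequences were read from the GENCODE M21 transcripts, with coding positions from its annotation. No protein sequence was used here. Each transcript's share of its gene's counts and the ratio of the 2 gene tables were computed here.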

Additional observations from a re-analysis of the deposited data

How the results depend on the processing

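Detection of the 8 genes held at a TPM threshold of 0.1 and in each library alone, and 7 were detected at a threshold of 5 or with FPKM, Slamf7 being lost. The median level of 116 was 71.9 in FPKM and 105.6 with posterior mean TPM, and 115 to 118 with 1 library left out. The count of genes called was 6 with TMM and 7 with DESeq2 size factors. Those higher in library 1 rose from 2 to 5 with TMM and 6 with DESeq2 size factors and fell to 1 in the small table, and those higher in library 2 fell from 2 to 1 with either scaling. Among partner genes, 16 were higher in library 1 with TMM and 16 with DESeq2 size factors, against 7 in the small table and 11 as reported. Over all genes, these settings called 30.1%, 32.1%, 22.1% and 23.9% in that direction. Directions that turned in the small table, with a call in at least 1 of the tables, were those of Slamf6 (0.022), Sh2d2a (0.045), Lck (0.17), Ptpn6 (0.10), Fyn (0.11), Cd2 (0.15) and Lat (0.085). With TMM and DESeq2 size factors, Csk turned to -0.088 and -0.12, called in both, and Cd84 to -0.059 and -0.095, called in the second. Ly9, Sh2d1a and Klrb1c in the small table, and Bcl10 with either scaling, changed sign without a call on either side. The cause of these changes was not tested. The median share of the leading transcript, 63.0% of TPM, was 63.7% of counts and 62.2% with posterior means, and 62.6 to 63.4% with 1 library left out. That median hides changes in single genes, since 5 of the 8 shares moved by more than their SD with counts. Sh2d2a-202 went from 59.1% to 38.4%, Slamf6-204 from 45.1% to 31.2% and Cd84-205 from 42.5% to 52.7%. By counts another transcript led in Slamf6 (Slamf6-201) and in Sh2d2a (Sh2d2a-201). No paired analysis was possible because both libraries belong to 1 group. With 1 biosample the spread between animals is unknown, and at 34 counts Slamf7 in library 1 is the least precise of the 8.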

Other observations

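The 2 gene tables of a library did not keep the same share of counts in every gene. Among genes with at least 100 counts, the small table held a median of 49.6% (library 1) and 51.3% (library 2) of the large table's count over 6279 genes with a mean TPM of 10 to 100. For the 1743 genes at 100 to 1000 TPM the medians were 28.0% and 31.3%, and for the 93 genes above that 2.07% and 2.85%. Slamf6 stood at 21.9% and 25.5%, Cd48 at 23.5% and 25.0%, and Ly9 at 48.5% and 52.9%. The cause was not tested, and whether duplicate reads were removed from either table remains not given in the sources used here.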
